A study of Mus musculus with 6 samples.

Results

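The genes described are the inducible and constitutive chaperone genes of the heat shock response in the colon of mice that had gained much or little weight on the same diet. They are 10 genes: *Hspa1a*, *Hspa1b*, *Hsph1*, *Dnajb1*, *Dnaja1*, *Hspb1*, *Hsp90aa1*, *Hspa8*, *Hspd1* and *Bag3*. They were taken by gene symbol from the 17778 genes listed in the expression file, and all 10 were listed and were among the 13520 genes tested. The list was selected on knowledge of these genes and with their expression in the same 6 mice in view, so the differences between the groups of mice are described for these genes without a test. Male C57BL/6J mice were fed a high-fat diet (HFD) labelled as 60% fat for 16 weeks, to an age of 21 weeks. Of 42 HFD-fed mice, the 10 with the highest weight gain were named obesity-prone (OP) and the 10 with the lowest were named obesity-resistant (OR), and colon RNA of 3 mice of each group was sequenced. Both groups thus shared strain, sex, diet and age and differed in weight gain, no transgene is named for either, and all mice were under pentobarbital sodium anaesthesia before the colon was taken.

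Heat shock proteins are molecular chaperones, which bind proteins that are newly made, unfolded or damaged and help them fold, pass on to other chaperones or be degraded. When unfolded proteins accumulate, for example in heat, heat shock factor 1 (HSF1) is released from chaperones, assembles into trimers and binds heat shock elements in the promoters of these genes. The colon lining is renewed continuously and meets bacterial products, and its cells hold high levels of the constitutive HSP70 protein, while the inducible HSP70 genes are known for large and rapid changes after heat, handling or injury of a tissue.

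Expression is given as FPKM (fragments counted relative to transcript length and to the mapped fragments of the library), which the authors deposited for each mouse. The FPKM values of a mouse summed to between 585350 and 600028, and 16287 to 16619 genes had a value above 0. The file holds no read counts, so the depth behind each value and its counting error are unknown, and only the spread between mice can be given as error. The general epithelial markers *Epcam* and *Krt8* had an FPKM of at least 934.63 and 2433.74 in every mouse, while *Aqp8*, a water channel of surface colonocytes, ranged from 10.08 in OR mouse 1 to 1084.04 in OP mouse 2. The sum of 15 epithelial markers ran from 15954 to 29812 in OP mice and from 16292 to 29846 in OR mice. Marker sums of other cell types differed between mice. The FPKM values of 10 fibroblast marker genes summed to 120 to 204 in OP mice and 287 to 531 in OR mice, and those of 10 blood endothelium marker genes to 17.9 to 33.7 in OP mice and 35.1 to 64.8 in OR mice, with OR mouse 3 highest in both sums. The sum of 7 B and plasma cell markers was 62.0, 50.8 and 177 in OP mice 1 to 3 and 141 to 169 in OR mice; of these markers, *Cd79a* had an FPKM of 39.83 in OP mouse 3 and 3.05 to 5.67 in the other mice. OP mouse 1 was the lowest mouse in 54.4% of all genes tested, and its median-of-ratios size factor was 0.803, against 0.983 to 1.11 in the other mice. In bulk tissue, fewer cells of a type cannot be told apart from less RNA per cell.

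The promoters are shown first because the heat shock element is the feature that a heat shock gene is expected to carry in its sequence. The sequences are RefSeq promoter windows, which run from 250 bases before to 50 bases after the annotated start of a transcript, on the mouse build GRCm38.p6. The authors aligned reads to GRCm39, and coordinates were not converted. A window was found for 8 of the 10 genes, and *Hsp90aa1* and *Hspa8* had none. The windows were searched for a pair of inverted units, GAANNTTC or TTCNNGAA, each of which reads the same on both strands, and for 3 alternating units in a row, which hold a pair of each form sharing its middle unit. Of 32851 windows of all genes, 15.06% held a pair in either form and 0.603% held 3 units. The stretches below run 5′ to 3′ on the strand of the gene, capitals mark the matches, and positions count from the annotated start.
Hspa1a: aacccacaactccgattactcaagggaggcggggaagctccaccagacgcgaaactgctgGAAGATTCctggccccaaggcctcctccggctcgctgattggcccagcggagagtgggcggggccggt
Hspa1b: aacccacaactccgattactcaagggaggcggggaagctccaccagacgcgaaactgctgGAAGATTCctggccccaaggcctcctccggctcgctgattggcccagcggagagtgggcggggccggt
Hspb1: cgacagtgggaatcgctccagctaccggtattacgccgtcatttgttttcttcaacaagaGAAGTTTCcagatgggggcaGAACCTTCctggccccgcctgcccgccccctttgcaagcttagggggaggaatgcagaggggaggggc
Hsph1: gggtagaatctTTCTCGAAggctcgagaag
Dnaja1: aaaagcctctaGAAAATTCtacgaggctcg
Hspd1: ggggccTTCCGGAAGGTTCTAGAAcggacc

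The stretch of *Hspa1a* lies at chr17:34972193-34972320 on the minus strand and that of *Hspa1b* at chr17:34959275-34959402 on the minus strand. The 2 stretches are identical, each with its match at positions -104 to -97, and the 250 bases before the start differed between the 2 genes at 3 positions. *Hspb1* is shown at chr5:135887742-135887889 on the plus strand and held matches at -117 to -110 and at -97 to -90. These 3 stretches overlapped no annotated exon in GENCODE M21. *Hsph1* is shown at chr5:149636351-149636380 on the minus strand, with a match at -33 to -26, and 3 units stood at +37 to +49, after the start. The match of *Dnaja1*, at chr4:40722333-40722362 on the plus strand, lay in 1 of its 3 windows at -124 to -117. *Hspd1*, at chr1:55088053-55088082 on the minus strand, held its match at -144 to -127, where 4 units alternate. The same bases lay at -89 to -72 of *Hspe1*, the neighbouring gene for the cochaperonin of *Hspd1*, on the opposite strand. The stretches of *Hsph1* and *Hspd1* overlap an untranslated exon of a longer transcript of the same gene, and that of *Dnaja1* an exon of a longer *Dnaja1* transcript and of *Gm6297*. *Bag3* held a match only after the start, at +43 to +50, and *Dnajb1* held none in its 2 windows. Of the 8 genes with a window, 7 thus held a pair and 2 held 3 units in any window. Counted in the same way, 16.97% and 0.662% of all 27025 genes with a window did. This is a description of these letters and not of binding.

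The inducible HSP70 genes, *Hspa1a* and *Hspa1b*, had the widest range between mice of the 10 genes. *Hspa1a* reached 13.04, 19.15 and 6.00 FPKM in OP animals 1, 2 and 3, compared with 40.61, 6.07 and 233.88 FPKM in the OR animals. *Hspa1b* measured 32.28, 70.08 and 11.13 FPKM in OP mice 1 to 3, against 90.29, 12.34 and 408.29 FPKM in OR mice 1 to 3, in the same order. OR mouse 3 was far above every other mouse in both genes, OR mouse 1 was second, and OR mouse 2 was nearly as low as the lowest OP mouse, so the groups overlapped. The means were 12.7 ± 6.58 in OP mice and 93.5 ± 123 in OR mice for *Hspa1a* (FPKM, SD, n = 3) and 37.8 ± 29.9 and 170 ± 210 for *Hspa1b* (FPKM, SD, n = 3). The SD of the OR mice was larger than their mean in both genes. The log2 fold change OP/OR, taken on log2(FPKM + 1), which understates changes of genes with low values, was -1.71 for *Hspa1a* (standard error 1.13) and -1.37 for *Hspa1b* (standard error 1.19). Without OR mouse 3 these values were -0.45 and -0.19, and without OR mouse 2 they were -2.98 and -2.66.

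The sum of the 2 genes ranged from 17.1 to 89.2 FPKM in OP mice and from 18.4 to 642 FPKM in OR mice. The ratio of *Hspa1b* to *Hspa1a* lay between 1.75 and 3.66 in the 6 mice, with no mouse in which *Hspa1a* was the higher of the pair. The 2 genes encode nearly the same protein, and their transcripts share long stretches. In GENCODE M21, 1350 of the 2868 windows of 100 bases in the *Hspa1a* transcript (47.07%) were also in the *Hspa1b* transcript. Of these 2868 windows, 134 (4.672%) were in the *Hspa1l* transcript and none was in the *Hspa8* transcript. How RSEM divided reads between *Hspa1a* and *Hspa1b* is therefore uncertain. Their FPKM sum depends on that division only through the lengths of the transcripts, 2967 and 2803 bases. The sum also depends on how reads shared with *Hspa1l* were divided.

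**Figure D1:**
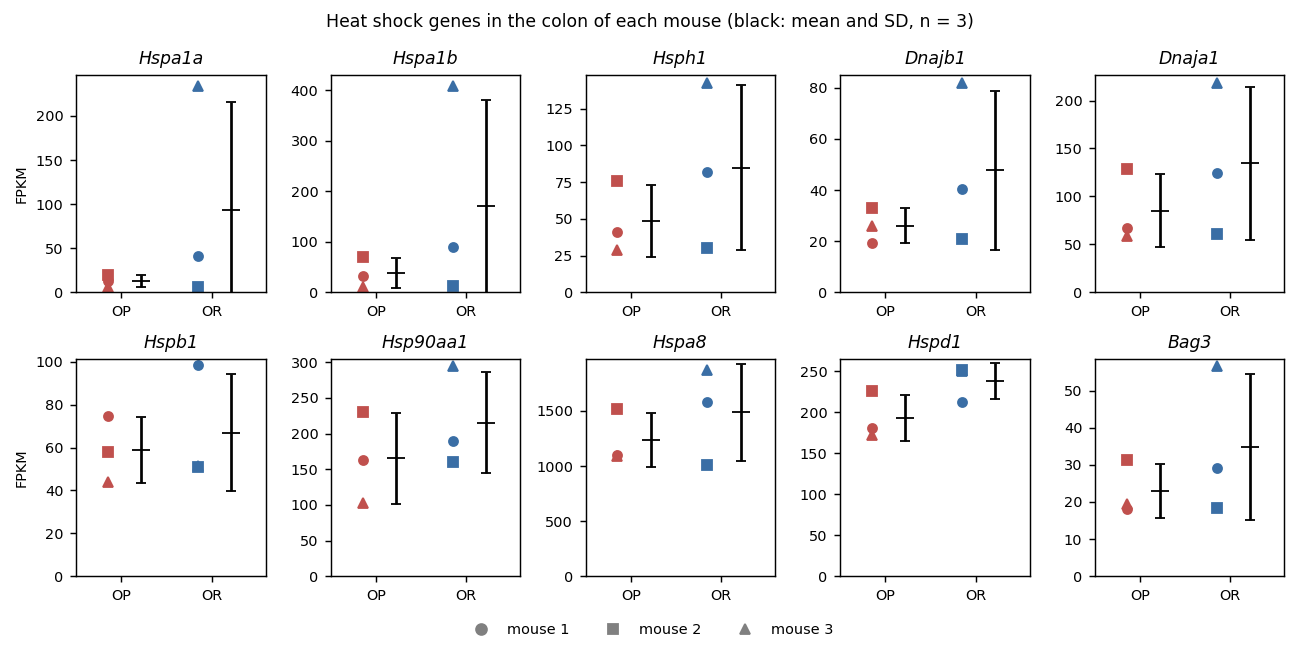
FPKM of each of the 10 heat shock genes, 1 panel per gene, with the vertical axis starting at 0; points are single OP (red) and OR (blue) mice, the symbol gives the mouse number, and black bars give mean and SD (n = 3), cut off at 0 for *Hspa1a* and *Hspa1b* in OR mice. OR mouse 3 is the highest mouse in 8 panels, and OP and OR mice overlap in all 10.

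*Hsph1*, which encodes the HSP110 protein that exchanges the nucleotide of HSP70, reached 41.02, 75.59 and 28.60 FPKM in OP animals 1, 2 and 3, compared with 81.79, 30.43 and 142.34 FPKM in the OR animals. OR mouse 3 was highest and OP mouse 3 lowest, and OR mouse 2 lay below 2 of the OP mice. The means were 48.4 ± 24.3 and 84.9 ± 56.0 (FPKM, SD, n = 3), and on the log2 scale OP minus OR was -0.66 (standard error 0.57).

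The J-domain proteins deliver clients to HSP70 and stimulate its ATPase. *Dnajb1*, the inducible HSP40, measured 19.26, 33.08 and 25.98 FPKM in OP mice 1 to 3, against 40.47, 20.98 and 81.94 FPKM in OR mice 1 to 3, and the log2 fold change OP/OR was -0.67 (standard error 0.45). *Dnaja1*, a farnesylated J-domain protein of the cytosol, reached 67.27, 128.57 and 58.69 FPKM in OP animals 1, 2 and 3, compared with 123.97, 60.75 and 218.56 FPKM in the OR animals, with a log2 fold change of -0.56 (standard error 0.48). In both genes OR mouse 3 was highest, while OP mouse 2 lay above OR mouse 2. OP mouse 2 also lay above OR mouse 1 in *Dnaja1*.

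*Bag3* encodes a cochaperone that links HSP70 to small heat shock proteins and to selective autophagy. It measured 18.06, 31.24 and 19.48 FPKM in OP mice 1 to 3, against 29.19, 18.49 and 56.54 FPKM in OR mice 1 to 3. OR mouse 3 was again highest, OP mouse 2 and OR mouse 1 followed close together, and the other 3 mice lay between 18.06 and 19.48. The log2 fold change OP/OR of *Bag3* was -0.48 (standard error 0.39), and without OR mouse 3 it was -0.06.

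*Hspa8* and *Hsp90aa1*, the cytosolic HSP70 and HSP90 genes with high expression in every mouse, varied less than *Hspa1a* and *Hspa1b*. *Hspa8*, the constitutive HSP70, had the highest FPKM of the 10 genes, at 1100.39, 1522.05 and 1089.07 in OP mice 1 to 3, against 1579.29, 1010.84 and 1876.28 in OR mice 1 to 3. Its log2 fold change OP/OR was -0.24 (standard error 0.27). *Hsp90aa1*, the inducible HSP90, measured 162.48, 230.84 and 102.61 FPKM in OP mice 1 to 3, against 189.20, 160.75 and 295.46 FPKM in OR mice 1 to 3, with a log2 fold change of -0.41 (standard error 0.33). OR mouse 3 was highest in both genes, and OR mouse 2 lay below at least 2 OP mice in both.

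*Hspb1* and *Hspd1* had other orders of mice. *Hspb1*, the small heat shock protein HSP27, which holds unfolded proteins without ATP, reached 74.73, 57.87 and 43.83 FPKM in OP animals 1, 2 and 3, compared with 98.58, 50.97 and 51.50 FPKM in the OR animals. It was highest in OR mouse 1, and OR mice 2 and 3 lay among the OP mice, so that its log2 fold change OP/OR, -0.15 (standard error 0.30), turned to 0.16 without OR mouse 1 and to 0.04 without OP mouse 3. *Hspd1*, the mitochondrial chaperonin HSP60, measured 181.33, 225.71 and 172.66 FPKM in OP mice 1 to 3, against 213.10, 252.17 and 250.89 FPKM in OR mice 1 to 3. Here OR mice 2 and 3 were above all OP mice, and OR mouse 1 was below OP mouse 2. The means of *Hspd1* were 193 ± 28.5 and 239 ± 22.2 (FPKM, SD, n = 3), and its log2 fold change of -0.31 (standard error 0.15) was -0.27 both without OR mouse 3 and without OR mouse 2, -0.43 without OP mouse 2 and -0.17 after median-of-ratios scaling.

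The comparison of OP with OR mice asked which colon genes differed with weight gain on the HFD. All genes were tested together with limma-trend and Benjamini-Hochberg adjustment, and the study's limits decided which genes were called: a q-value under 0.2 together with a fold change outside the range from 0.83 to 1.2. Of the 13520 genes tested, 0 (0%) were called higher in OP mice and 3 (0.0222%) were called lower. The study, with DESeq2 and the same limits, reported more genes in each direction, so these counts are not those of the study. The 3 genes lower in OP mice were *Postn*, *Ccl11* and *Scara5*, and of the heat shock genes 0 of 10 were called. All OP mice lay below all OR mice in 6.81% of the genes tested and above them in 1.63%, and in 0 of the 10 heat shock genes. At an unadjusted limma-trend p below 0.05, 0.503% of the genes were higher and 3.53% lower in OP mice, and the heat shock genes held 0 of either. These counts are no test of the 10 heat shock genes, which were selected with their values in view.

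All 10 log2 fold changes OP/OR were below 0, as were those of 9475 of the 13520 genes. Their median was -0.52, beside -0.10 over all genes tested. Without OR mouse 3 the median of the 10 genes was -0.17, beside -0.09 over all genes, and without OR mouse 2 it was -0.94. It was -0.78 without OP mouse 2 and -0.34 without OP mouse 3. The size of the group difference thus depended on which single mouse was left out, with OR mouse 2 and OR mouse 3 at opposite ends. After median-of-ratios scaling, which brought the median of all genes to 0.01, the median of the 10 genes was -0.38 and all 10 were below 0, with *Hspb1* at -0.01 and *Hspa8* at -0.10.

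**Figure D2:**
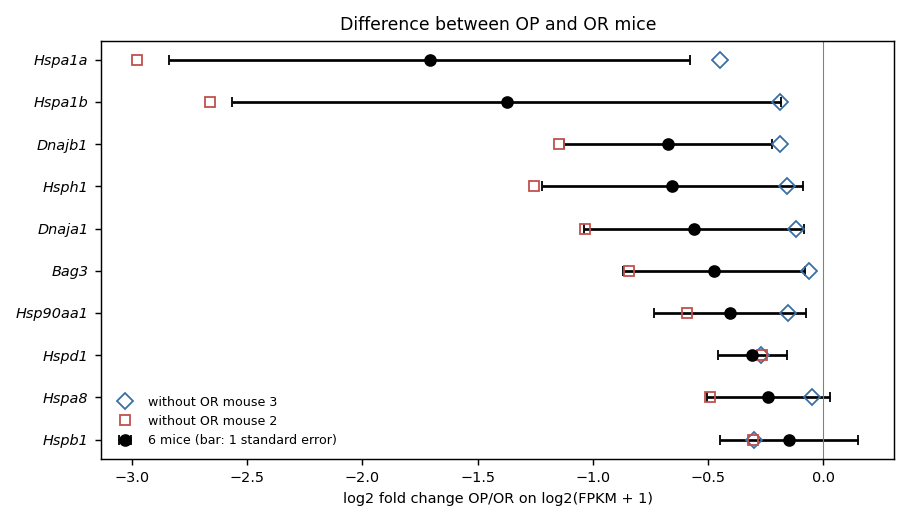
Log2 fold change OP/OR on log2(FPKM + 1) of each heat shock gene (black, with 1 standard error), and the same value without OR mouse 3 (blue diamonds) or without OR mouse 2 (red squares). The diamonds of *Hspa1a* and *Hspa1b* lie at -0.45 and -0.19 and their squares at -2.98 and -2.66, while those of *Hspd1* stay together at -0.27.

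The heat shock genes varied widely between mice, also within a group. The FPKM of the highest mouse was 39.0 times that of the lowest for *Hspa1a* and 36.7 times for *Hspa1b*, which placed them at percentile 99.5 of the 9024 genes with a mean FPKM of at least 5, whose median ratio was 1.59. *Hsph1* had a ratio of 4.98, *Dnajb1* of 4.25, *Dnaja1* of 3.72, *Bag3* of 3.13 and *Hsp90aa1* of 2.88, all at percentile 89.3 or above. *Hspb1* had 2.25, *Hspa8* 1.86 and *Hspd1* 1.46, and *Hspd1* stood at percentile 37.2. The coefficient of variation within groups was 164% for *Hspa1a*, 144% for *Hspa1b* and 64.8% for *Hsph1*, and 11.8% for *Hspd1*, beside a median of 16.7% over these genes. The spread was widest for *Hspa1a* and *Hspa1b*, and that of *Hspd1* lay below the spread of the median gene.

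**Figure D3:**
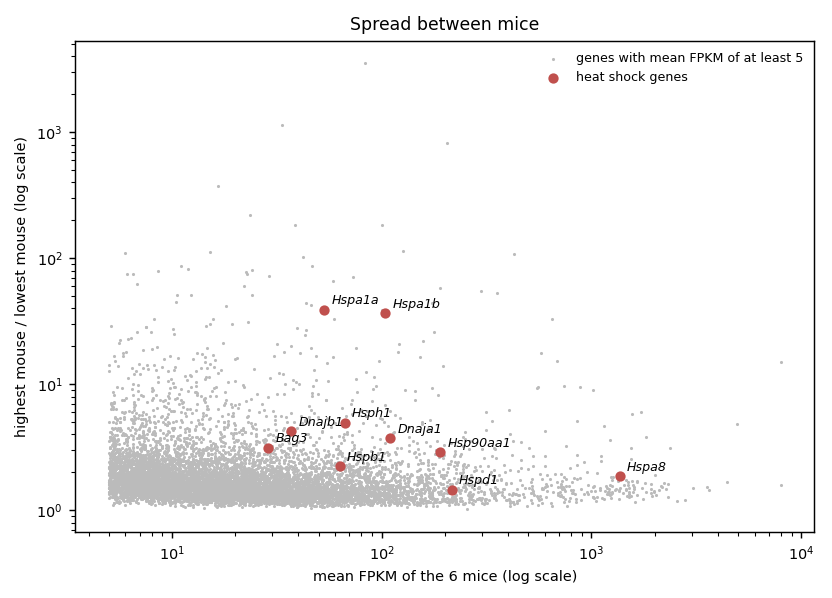
Ratio of the highest to the lowest mouse against the mean FPKM of the 6 mice, both on log axes, for the 9024 genes with a mean of at least 5 (grey) and the 10 heat shock genes (red). *Hspa1a* and *Hspa1b* stand at 39.0 and 36.7, at percentile 99.5 of all these genes, and *Hspd1* lies within the grey band at 1.46.

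Most of the heat shock genes ordered the 6 mice in nearly the same way, across the 2 groups. To compare mice, the log2(FPKM + 1) of each gene was centred and divided by its SD over the mice, and the mean of the 10 genes was 1.303 in OR mouse 3, 0.50 in OR mouse 1, 0.30 in OP mouse 2, -0.50 in OP mouse 1, -0.63 in OR mouse 2 and -0.98 in OP mouse 3. OR mouse 3 was highest in 8 of the 10 genes, and OR mouse 1 and OR mouse 2 were highest in 1 each (*Hspb1* and *Hspd1*). OP mouse 3 was lowest in 7 genes. Of all genes tested, 21.9% were highest in OR mouse 3 and 6.65% were lowest in OP mouse 3. OP mouse 2 lay above the median of the 6 mice in all 10 heat shock genes, and OR mouse 2 in 1.

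**Figure D4:**
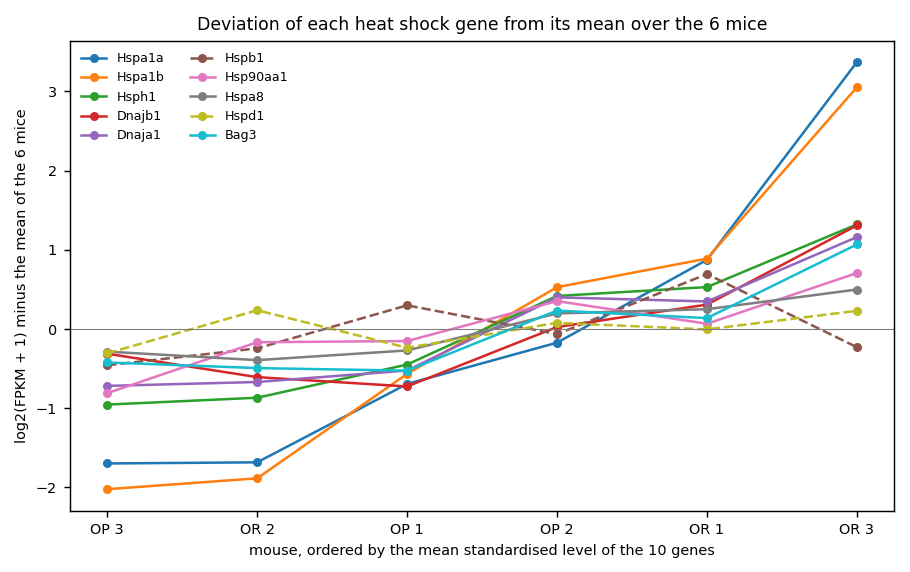
Log2(FPKM + 1) of each heat shock gene minus its mean over the 6 mice, with the mice in the order of the mean standardised level of the 10 genes. Solid lines are low in OP mouse 3, OR mouse 2 and OP mouse 1 and highest in OR mouse 3, which lies more than 3 above the mean for *Hspa1a* and *Hspa1b*, and the dashed lines of *Hspb1* and *Hspd1* do not follow that order.

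The likeness of the genes was measured as Pearson r over the 6 mice between a gene and the mean standardised profile of the other heat shock genes. It is given as a description without a p, since the genes were chosen together and all come from the same 6 libraries. *Hsph1* had an r of 0.99, *Dnaja1* and *Hspa1b* of 0.98, *Hspa8* of 0.96, *Hspa1a* of 0.95, *Bag3* of 0.94, *Hsp90aa1* of 0.90 and *Dnajb1* of 0.89. *Hspd1* had 0.52 and *Hspb1* 0.15. After the mean of each group was subtracted, the r of the first 8 genes lay between 0.85 and 1.00, that of *Hspd1* was 0.31 and that of *Hspb1* 0.07. The likeness of the 8 genes was thus also there between mice of the same group. Left without OP mouse 3 and OR mouse 3, the mice at the 2 ends, the same 8 genes had an r between 0.76 and 0.99, *Hspb1* had 0.41 and *Hspd1* had -0.16. The median r of the 45 pairs of heat shock genes was 0.90, and that of the 28 pairs without *Hspb1* and *Hspd1* was 0.94. These 2 genes had the lowest r in the same data, so the second median is higher by that choice.

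Outside the list, the genes most like the heat shock genes included other parts of the HSP90 machinery. Of 9014 other genes with a mean FPKM of at least 5, 86 (0.954%) had an r of at least 0.9 with the mean profile. The 10 highest were *Sertad1* and *Chordc1* (r = 0.99) and *Ppp1r15b*, *Hsp90ab1*, *Cep19*, *Ube2s*, *Abhd13*, *Snx11*, *Cacybp* and *Ythdf1* (r = 0.98). *Hsp90ab1*, the constitutive HSP90, reached 676.40, 788.74 and 663.47 FPKM in OP animals 1, 2 and 3, compared with 861.90, 690.73 and 1029.59 FPKM in the OR animals. *Chordc1*, which encodes an HSP90 cochaperone, measured 30.91, 49.92 and 24.06 FPKM in OP mice 1 to 3, against 49.17, 27.26 and 67.52 FPKM in OR mice 1 to 3. OR mouse 3 was highest in both, as in 8 of the 10 heat shock genes, while OR mouse 1 was second in *Hsp90ab1* and OP mouse 2 in *Chordc1*. The groups overlapped in both. *Ppp1r15b* encodes the constitutive subunit of the phosphatase that acts on eIF2 alpha, and it ranged from 39.47 FPKM in OP mouse 3 to 64.45 FPKM in OR mouse 3.

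Chaperones and cochaperones outside the list were examined in 10 wider lists by family, with 122 genes in all, of which 118 were listed in the file and 110 were tested. Of the 110 genes, 0 were called higher and 0 lower in OP mice, beside 0% and 0.0222% of all genes, and the lowest q-value was 0.945 (limma-trend, Benjamini-Hochberg). At an unadjusted p below 0.05, 0 were higher and 2 were lower, *Hspa12b* and *Dnajb4*, beside 0.503% and 3.53% of all genes. The log2 fold change OP/OR was above 0 for 22 genes and below 0 for 88 of the 110, beside 9475 below 0 of all 13520 genes. Its median was -0.15, beside -0.10 over all genes, and after median-of-ratios scaling the median was -0.02. In 10 of the 110 genes the groups did not overlap, 9 with all OP mice below all OR mice and 1 with all above, beside the 6.81% and 1.63% of all genes. The counts of genes called, under the unadjusted limit or not overlapping did not set the wider chaperone lists apart from the genes tested. In likeness to the heat shock profile they differed. Of their 99 genes with a mean FPKM of at least 5, 7 (7.07%) had an r of at least 0.9, beside 86 (0.954%) of the 9014 genes.

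Of the HSP70 and HSP110 family outside the list, 10 genes were tested and 9 lay below 0. *Hspa5*, the HSP70 of the endoplasmic reticulum (BiP), reached 161.47, 308.97 and 147.26 FPKM in OP animals 1, 2 and 3, compared with 187.83, 243.16 and 312.30 FPKM in the OR animals, with OP mouse 2 and OR mouse 3 nearly equal at the top. The family ended at *Hspa12a*, with a log2 fold change OP/OR of 0.38, and at *Hspa12b*, an atypical member of endothelium, with -0.47 (standard error 0.16), and endothelial marker sums were also higher in OR mice. Whether they have a part in the *Hspa12b* value was not tested. Of the HSP90 family 3 genes were tested, with log2 fold changes from -0.26 (*Hsp90ab1*) to -0.09 (*Hsp90b1*).

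Among 36 J-domain cochaperone genes, 11 lay above 0 and 25 below, with a median log2 fold change OP/OR of -0.08. *Dnajb4*, a relative of *Dnajb1*, measured 5.41, 6.55 and 6.81 FPKM in OP mice 1 to 3, against 11.35, 7.11 and 15.07 FPKM in OR mice 1 to 3, and every OR mouse lay above every OP mouse. Its log2 fold change was -0.70 (standard error 0.27), with a q-value of 0.945 by limma-trend. *Dnajb6* stood at the other end with 0.25, and *Dnajb11*, the J-domain protein of the endoplasmic reticulum and the one with the highest mean FPKM, had 0.01.

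Of the small heat shock proteins 6 genes were tested, and 5 lay below 0. *Cryab*, the alpha-B crystallin, reached 23.94, 21.60 and 21.81 FPKM in OP animals 1, 2 and 3, compared with 38.33, 22.88 and 32.42 FPKM in the OR animals. The log2 fold change OP/OR was -0.43 for *Cryab*, -0.58 for *Hspb6* and 0.09 for *Hspb11*. *Hspb2*, with a mean FPKM of 4.61, had -0.47 and an r of 0.98 with the heat shock profile, the highest r of this list. *Cryab* and *Hspb6* are high in smooth muscle, and the sum of 11 smooth muscle markers was 1897 to 2809 FPKM in OP mice and 2279 to 4178 FPKM in OR mice, with OR mouse 1 highest, as it was in *Cryab*, *Hspb6* and *Hspb1*. The part of muscle in these values was not tested. Over the 6 mice the smooth muscle sum had an r of 0.70 with the mean profile of the heat shock genes, the fibroblast sum 0.53, the blood endothelium sum 0.32 and the epithelial sum -0.34, given as descriptions.

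Among 9 chaperonin genes, 8 lay below 0, from -0.30 for *Tcp1*, a subunit of the cytosolic chaperonin, to 0.05 for *Hspe1*. *Hspe1* measured 189.52, 185.09 and 151.85 FPKM in OP mice 1 to 3, against 149.77, 175.19 and 183.94 FPKM in OR mice 1 to 3. *Hspe1* and *Hspd1*, which share the stretch between their starts, did not have the same order of mice, and the r of *Hspe1* with the heat shock profile was 0.23. The mitochondrial chaperones and proteases (12 genes, median log2 fold change -0.08, from -0.34 for *Lonp1* to 0.18 for *Grpel2*) had a median r of 0.22 with the heat shock profile. The endoplasmic reticulum chaperones (16 genes, median -0.12, with *Calr* at -0.10 and *Herpud1* at 0.11) had a median r of 0.48, and the median r of all genes tested was 0.20.

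BAG proteins and other cochaperones of HSP70 and HSP90 numbered 23, of which 21 lay below 0, with a median log2 fold change OP/OR of -0.21. Their lowest value was that of *Chordc1*, -0.42, and the highest that of *Sgta*, 0.12, a gene in which all OP mice lay above all OR mice. *Fkbp4*, an immunophilin of the HSP90 complex, had -0.18 and an r of 0.96. A list of 20 known HSF1 targets repeats genes of the lists above, among them *Chordc1* and *Dnajb4*. Its 20 genes had a median r of 0.81, the highest of the wider lists, and 13 of them were highest in OR mouse 3. Their log2 fold changes were below 0 for 16 genes and above 0 for 4. *Ubb*, a ubiquitin gene among these targets, measured 1155.00, 946.84 and 1003.87 FPKM in OP mice 1 to 3, against 902.05, 1134.98 and 951.70 FPKM in OR mice 1 to 3, with a log2 fold change of 0.06 and an r of -0.66. Some targets of HSF1 therefore shared the order of the heat shock genes and others did not.

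The heat shock factors had narrower ranges than the inducible HSP70 genes. *Hsf1* measured 14.19, 16.28 and 19.32 FPKM in OP mice 1 to 3, against 19.07, 15.49 and 21.41 FPKM in OR mice 1 to 3, and its log2 fold change OP/OR was -0.16 (standard error 0.18). *Hsf2*, a related factor, reached 2.85, 3.30 and 3.92 FPKM in OP animals 1, 2 and 3, compared with 5.54, 3.47 and 4.56 FPKM in the OR animals, with a log2 fold change of -0.33 (standard error 0.21). *Hsbp1*, which encodes a small protein that binds HSF1, had a log2 fold change of 0.04. OP mouse 3, the lowest mouse for 7 of the 10 heat shock genes, had the second highest *Hsf1* value. The 4 genes tested of the list of heat shock factors and *Hsbp1* had an r of 0.55 to 0.77 with the heat shock profile. Their median r was 0.61, beside 0.20 over all genes tested, and 3 of them were highest in OR mouse 3. HSF1 is controlled mainly by its assembly and modification, which RNA levels do not measure.

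**Figure D5:**
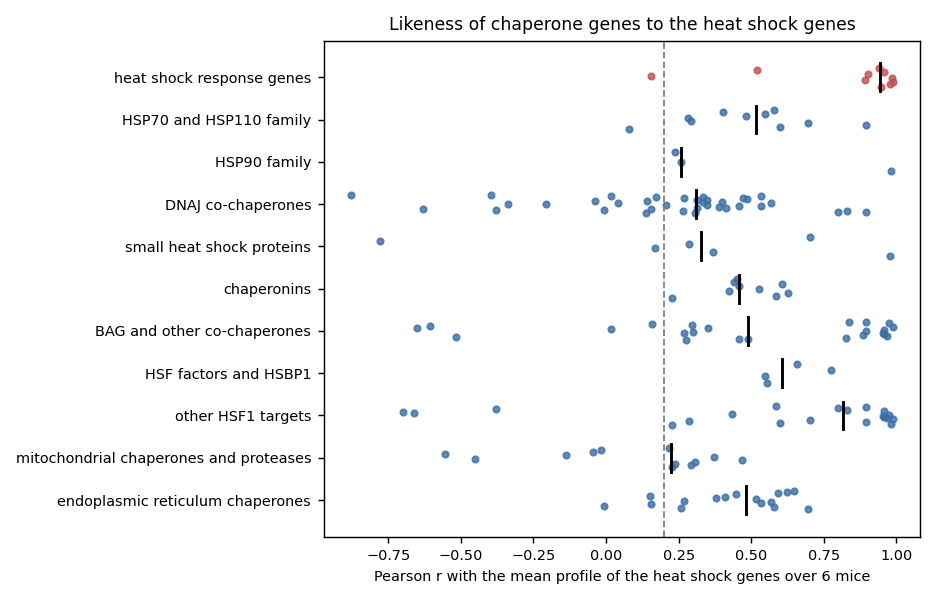
Pearson r over the 6 mice of each gene with the mean standardised profile of the heat shock genes (for a heat shock gene, of the other heat shock genes), by list; black bars are list medians and the dashed line is the median of all genes tested (0.20). Other HSF1 targets have the highest median of the wider lists (0.81) and mitochondrial chaperones and proteases the lowest (0.22); a gene may be in more than 1 list.

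The cold-inducible RNA-binding proteins in many tissues respond to temperature in the opposite direction to heat shock genes. The 2 genes listed differed in their r with the heat shock profile, and a part of temperature in these values was not tested. *Cirbp* measured 29.44, 30.77 and 47.85 FPKM in OP mice 1 to 3, against 31.16, 33.80 and 41.80 FPKM in OR mice 1 to 3, and an r of -0.08 with the heat shock profile. *Rbm3* reached 64.70, 154.38 and 121.42 FPKM in OP animals 1, 2 and 3, compared with 176.98, 101.73 and 191.96 FPKM in the OR animals, and an r of 0.74. *Rbm3* thus was highest in OR mouse 3, the mouse in which most heat shock genes were highest.

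The 10 heat shock genes together made up 0.318% ± 0.0799 of the FPKM total in OP mice and 0.432% ± 0.165 in OR mice (SD, n = 3), from 0.260% in OP mouse 3 to 0.603% in OR mouse 3. *Hspa8* alone exceeded the sum of the other 9 genes in every mouse. Without *Hspa8* the share ran from 0.0782% in OP mouse 3 to 0.290% in OR mouse 3. The groups overlapped in both shares, with OP mouse 2 above OR mouse 2.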

How the data were processed

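Colon RNA of 3 OP and 3 OR mice was sequenced on the DNBSEQ platform from strand-specific mRNA libraries. Reads were cleaned with SOAPnuke, mapped with Bowtie2 and turned into FPKM with RSEM by the authors; the labels and the methods give different versions, and the submitters' processing notes also list HISAT2 2.0.4 and GRCm39. The deposited FPKM values have 2 decimals and carry no read totals. A gene was tested if 3 or more mice had an FPKM of 0.5 or higher. The groups were compared on log2(FPKM + 1) with limma-trend from limma 3.58.1 under R 4.3.3, no covariate was used, and p-values were adjusted by Benjamini-Hochberg over the genes tested. Counts were not at hand, and DESeq2, the study's tool, was therefore not run. The script was tested on simulated data. Pearson r and other descriptions were computed in Python 3.11.15. The heat shock genes and the wider lists, written from general knowledge, were chosen with earlier results of these data known. Genes named besides the 10 are, for each wider list, those with the highest mean and the extreme fold changes, *Hsf1*, *Hsf2*, *Hsp90ab1*, *Hspe1*, *Cirbp*, *Rbm3*, and the 10 most alike; others were chosen after their values were seen. A gene that this rule also names is not reported here. Samples were grouped by their labels. Each labelled sample is a mouse of its own, and the replicate numbers do not pair mice. Promoters came from RefSeq and transcripts from GENCODE M21, both on GRCm38. Alternatives were another scaling, TPM, a pseudocount of 0.1, other filters, no trend, no fold limit, sample weights, the replicate block and each mouse left out.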

Additional observations from a re-analysis of the deposited data

How the results depend on the processing

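The log2 fold changes of the 10 heat shock genes were below 0 in all settings tried, except for *Hspb1* without OP mouse 3 and without OR mouse 1. When single mice were left out, their median ranged from -0.94 to -0.17, and it was -0.54 with sample weights and -0.48 with *Hspa1a* and *Hspa1b* summed, an alternative added after the data were seen. The 3 genes called lower in OP mice became 0 after median-of-ratios scaling, TPM scaling, a pseudocount of 0.1, no filter and a minimum FPKM of 1 in each of the 6 mice, became 5 with sample weights, and lay between 0 and 1 with each mouse left out; the cause was not tested. With the replicate number as a block it was 0, and the median of the heat shock genes was -0.52. Mice with the same number did not deviate together (mean r -0.0765 over 3 pairs, beside 0.0394 over 6 pairs with different numbers). No gene was called higher, and no gene of the wider chaperone lists was called, in any setting. DESeq2 was not run, since the values are FPKM. Only 3 mice per group were sequenced, and the depth behind the values is unknown.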

Other observations

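Other genes that respond quickly to stress or to the time of day did not share 1 order of mice. Of 21 immediate-early genes tested, 10 lay above 0 and 11 below in log2 fold change OP/OR, and 0 were called (lowest q-value 0.582 by limma-trend). They ran from -1.93 (*Nr4a1*) to 0.60 (*Jun*). At an unadjusted limma-trend p below 0.05, 1 was higher and 4 were lower in OP mice, beside 0.503% and 3.53% of all genes, and the groups did not overlap in 5, beside 6.81% of all genes with all OP mice below all OR mice and 1.63% with all above. No gene of this list was among the 3 called (0.0222% of all genes). *Atf3*, a stress-responsive factor, measured 16.10, 19.82 and 8.91 FPKM in OP mice 1 to 3, against 38.91, 14.28 and 29.81 FPKM in OR mice 1 to 3, with an r of 0.87 with the heat shock profile. *Fos* reached 66.27, 88.41 and 35.28 FPKM in OP animals 1, 2 and 3, compared with 101.07, 39.70 and 44.66 FPKM in the OR animals, and was highest in OR mouse 1 rather than in OR mouse 3. The summed FPKM of the 23 immediate-early genes listed had an r of 0.31 with the heat shock profile over the 6 mice.

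Of 15 circadian clock genes tested, 6 lay above 0 and 9 below, and 0 were called. The clock output gene *Dbp* measured 12.43, 11.35 and 24.28 FPKM in OP mice 1 to 3, against 29.56, 8.80 and 9.76 FPKM in OR mice 1 to 3. OP mouse 3 and OR mouse 1, the 2 mice with the highest *Dbp*, stood at the lowest and the second highest mean level of the heat shock genes. Over the 15 clock genes, r with the heat shock profile ran from -0.52 to 0.85 (*Clock*), with a median of -0.16. A part of the time of day in the heat shock values was not tested. The single genes named in these other observations were chosen after their values were seen.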
